A study of Mus musculus with 8 samples.

Results

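MHC class I and its peptide loading were followed through 10 of the 32285 genes in the deposited gene table, chosen by name: the heavy chains H2-K1, H2-D1, H2-Q10, H2-Q7 and H2-T23, the light chain B2m, the peptide transporter genes Tap1 and Tap2, the loading chaperone gene Tapbp, and the activator gene Nlrc5. Single-cell RNA was sequenced from tumor, spleen, bone marrow and blood of female C57BL6/J mice with subcutaneous flank tumors of MOPC cells, a mouse oropharyngeal carcinoma line. The labels give the treatment of every library as MPOC tumor, so no tumor-free animal enters any comparison. In each tissue the labels list WT mice and a gene knockout model named only Genotype_02. Cells had been sorted as viable Gr1+ cells without NK1.1, FcRe, Ter119, B220 or CD3, together with viable Gr1- cKit+ cells, and tagged with hashtag antibodies that the labels call specific to organ, mouse and condition. No label ties a hashtag to a genotype, so hashtags 1-4 and 5-8 were compared as hashtag numbers only, and the knocked-out gene, which the labels do not name, could not be checked.

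The table held 20012 cells, of which 17960 carried 1 hashtag. In the tumor library only 217 of 462 cells did (47.0%), against 89.6% to 91.9% in the other tissues. By the class rules below, 52 of 99 tumor mature neutrophils and 23 of 49 tumor macrophages carried 1 hashtag. Cells were classed by their own RNA. Immature neutrophils had Camp, Ngp and Ltf at 1% or more of their unique molecular identifiers (UMIs), mature neutrophils had S100a8 and S100a9 at 3% or more (1% in tumor), monocytes had at least 2 Ly6c2 and 1 Csf1r UMIs, and tumor macrophages had at least 3 C1qa, C1qb and C1qc UMIs. UMIs were summed per hashtag within each class and tissue, which gave 68 sums of 32148 to 4424355 UMIs, and levels are UMIs of a gene scaled to the total UMIs of a sum (CPM). Each sum was taken as 1 mouse. Tumor sums were few and small: 4 of mature neutrophils (hashtags 2, 3, 4 and 6), 2 of macrophages (hashtags 2 and 4) and 1 of monocytes (hashtag 6), of 5 to 17 cells each, against 23 to 1210 cells elsewhere. No doublet caller was run. In the tumor library 122 cells met more than 1 class rule, with a median of 29901.5 UMIs, and were left out. Cells from 4 tissues were told apart by the barcode suffix, whose tie to a tissue rests on the library names, and 31 barcodes occurred in more than 1 library. No label says how the hashtags map to separate cages or days, so p-values measure the spread between hashtags. One splenic monocyte sum among hashtags 5-8 stood apart, with 31281 CPM of B cell markers, against at most 264 CPM among hashtags 1-4.

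Class I heavy chains pair with B2m in the endoplasmic reticulum and carry peptides to the cell surface, where CD8 T cells and natural killer cells read them. TAP1 and TAP2 form the transporter that brings in the peptides, tapasin (Tapbp) holds the empty heavy chain beside it, and NLRC5 activates class I genes at their promoters. Interferons are textbook inducers of the whole group. H2-K1 and H2-D1 are the classical chains of this mouse strain, H2-Q10 encodes a secreted chain known from liver, H2-Q7 encodes Qa-2, and H2-T23 encodes Qa-1, which presents leader peptides of other class I chains to NKG2A receptors. H2 genes are near-identical in sequence, and reads could have been split or misassigned among them, so the values of single H2 genes are uncertain in that respect.

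All members but B2m (chromosome 2) and Nlrc5 (chromosome 8) lie on chromosome 17 in GRCm38.p6, the assembly of the mm10 build named in the submitters' processing notes. The 200 bases before the start listed in the promoter table, the first of the listed ones for H2-K1, are shown for the 4 heavy chains whose levels differed most in pattern and for B2m, from RefSeq and with matches to 4 motifs in capitals. The listed H2-K1 start lies inside the annotated span of the gene (33996012 to 34000619), as does the end of the H2-Q7 stretch (span from 35439140), so distances are from the listed start:
H2-K1 (chr17:34000348-34000547, minus strand): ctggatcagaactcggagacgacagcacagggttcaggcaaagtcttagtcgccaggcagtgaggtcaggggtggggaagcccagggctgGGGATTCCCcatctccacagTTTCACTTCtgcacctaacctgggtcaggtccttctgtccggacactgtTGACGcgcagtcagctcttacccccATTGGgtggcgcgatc
H2-D1 (chr17:35262894-35263093, plus strand): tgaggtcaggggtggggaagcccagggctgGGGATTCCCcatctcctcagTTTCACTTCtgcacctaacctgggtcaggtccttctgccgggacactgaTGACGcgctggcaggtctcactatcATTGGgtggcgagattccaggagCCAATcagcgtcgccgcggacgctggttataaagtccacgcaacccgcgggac
H2-Q7 (chr17:35438955-35439154, plus strand): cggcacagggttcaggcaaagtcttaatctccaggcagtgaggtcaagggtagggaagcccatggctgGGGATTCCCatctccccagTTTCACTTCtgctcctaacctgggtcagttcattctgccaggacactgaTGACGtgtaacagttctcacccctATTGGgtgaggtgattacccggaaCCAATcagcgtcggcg
H2-Q10 (chr17:35469889-35470088, plus strand): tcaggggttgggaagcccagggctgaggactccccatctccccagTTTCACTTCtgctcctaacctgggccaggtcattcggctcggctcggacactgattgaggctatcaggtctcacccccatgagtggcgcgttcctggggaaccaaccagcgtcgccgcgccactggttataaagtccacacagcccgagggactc
B2m (chr2:122147487-122147686, plus strand): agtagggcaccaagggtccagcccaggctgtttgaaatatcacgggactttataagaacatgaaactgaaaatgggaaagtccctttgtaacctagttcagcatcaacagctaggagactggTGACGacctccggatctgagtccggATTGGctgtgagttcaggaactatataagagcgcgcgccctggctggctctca

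The motifs were searched on both strands in the 300 bases around the start, 250 before it and 50 after. In the printed order of H2-K1, the capitals mark GGGATTCCC (a kappa B site), GAANNGAAA read on the other strand (a core of interferon response elements), TGACG (the core of a cyclic AMP response element, CRE) and CCAAT read on the other strand (the NF-Y box). Of 27025 promoters, 0.370% held GGGATTCCC, 7.56% held GAANNGAAA, 21.0% held TGACG and 37.9% held CCAAT. Of the 8 members with a promoter entry, 3 held GGGATTCCC (H2-K1, H2-D1 and H2-Q7), 4 held GAANNGAAA (the same 3 and H2-Q10), 5 held TGACG and 7 held CCAAT. H2-Q10 held GAANNGAAA alone of the 4. In H2-K1 the kappa B match lay at -110 to -102 and the interferon response match at -90 to -82, and in H2-D1 they lay at -170 to -162 and -150 to -142. A match describes letters only and is not evidence that a factor binds there.

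**Figure D1:**
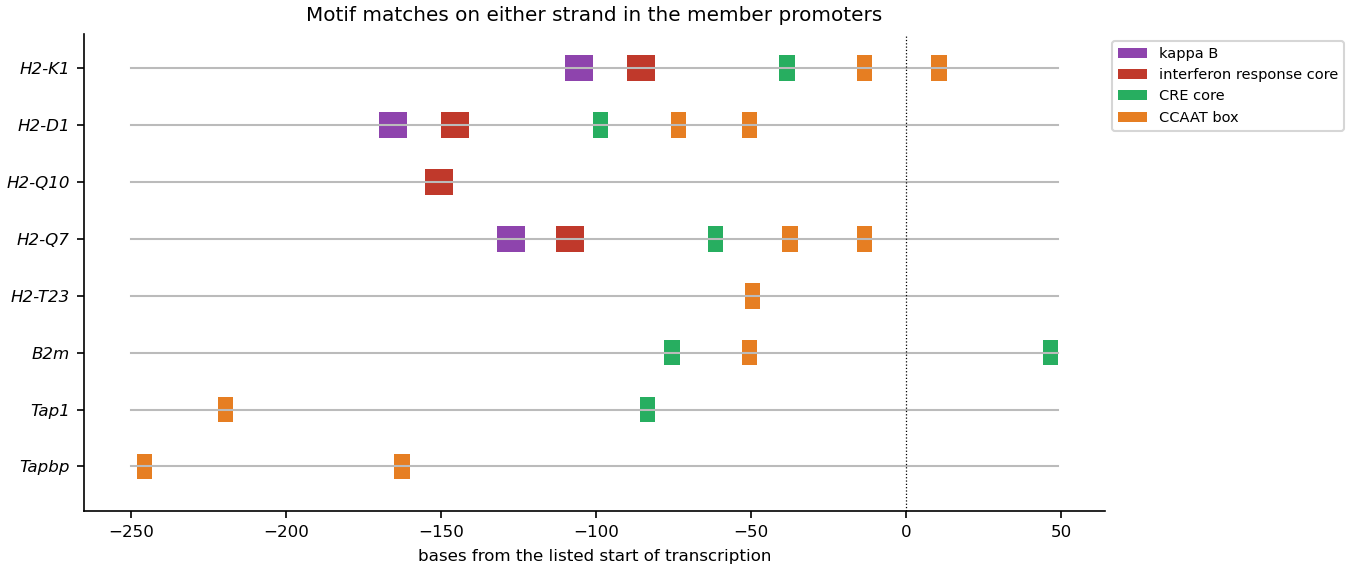
Matches to the 4 motifs in the window from 250 bases before to 49 bases after the listed start of the 8 members with a promoter entry; the horizontal axis is the distance from the start in bases and each mark is 1 match on either strand. H2-K1, H2-D1 and H2-Q7 share the order kappa B, interferon response core, CRE core and CCAAT, while H2-Q10 shows the interferon response core only.

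H2-K1 was lowest in immature neutrophils of bone marrow, at 141 ± 67.4 CPM (SD, n = 8), and highest in tumor macrophages, at 2040 and 2026 CPM. Between these lay mature neutrophils of marrow at 218 ± 114 CPM, of blood at 306 ± 162 CPM and of spleen at 321 ± 163 CPM (SD, n = 8 each). Monocytes had 380 ± 131 CPM in marrow, 542 ± 220 CPM in spleen and 549 ± 235 CPM in blood (SD, n = 8 each). The 1 sum of tumor monocytes had 369.5 CPM. Immature neutrophils of spleen had 223 ± 78.2 CPM (SD, n = 5) and mature neutrophils of tumor 773 ± 338 CPM (SD, n = 4). Every neighbouring pair in this order overlapped except the tumor macrophages, whose 2 sums lay above all other sums.

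H2-Q10 was high in mature neutrophils. It averaged 606 ± 28.6 CPM in mature neutrophils of blood, 537 ± 36.7 CPM in those of spleen and 219 ± 29.0 CPM in those of marrow (SD, n = 8 each). In monocytes it was near 0, with a highest sum of 37.4 CPM in spleen, 19.7 CPM in blood and 2.11 CPM in marrow, and immature neutrophils of marrow had 8.50 ± 3.25 CPM (SD, n = 8). After each cell was thinned to 1000 UMIs, 42.5% of mature blood neutrophils had an H2-Q10 UMI, against 0.846% of blood monocytes and 0 of 733 marrow monocytes, which allows a share of up to 0.502% of cells with a UMI at that depth (exact Clopper-Pearson bound, counting error only) and sets no limit on cells that express the gene. The unthinned shares were 73.4%, 4.23% and 1.36%, at median depths of 2988, 10643 and 15353 UMIs per cell. Whether free RNA gave the monocyte UMIs was not tested.

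**Figure D2:**
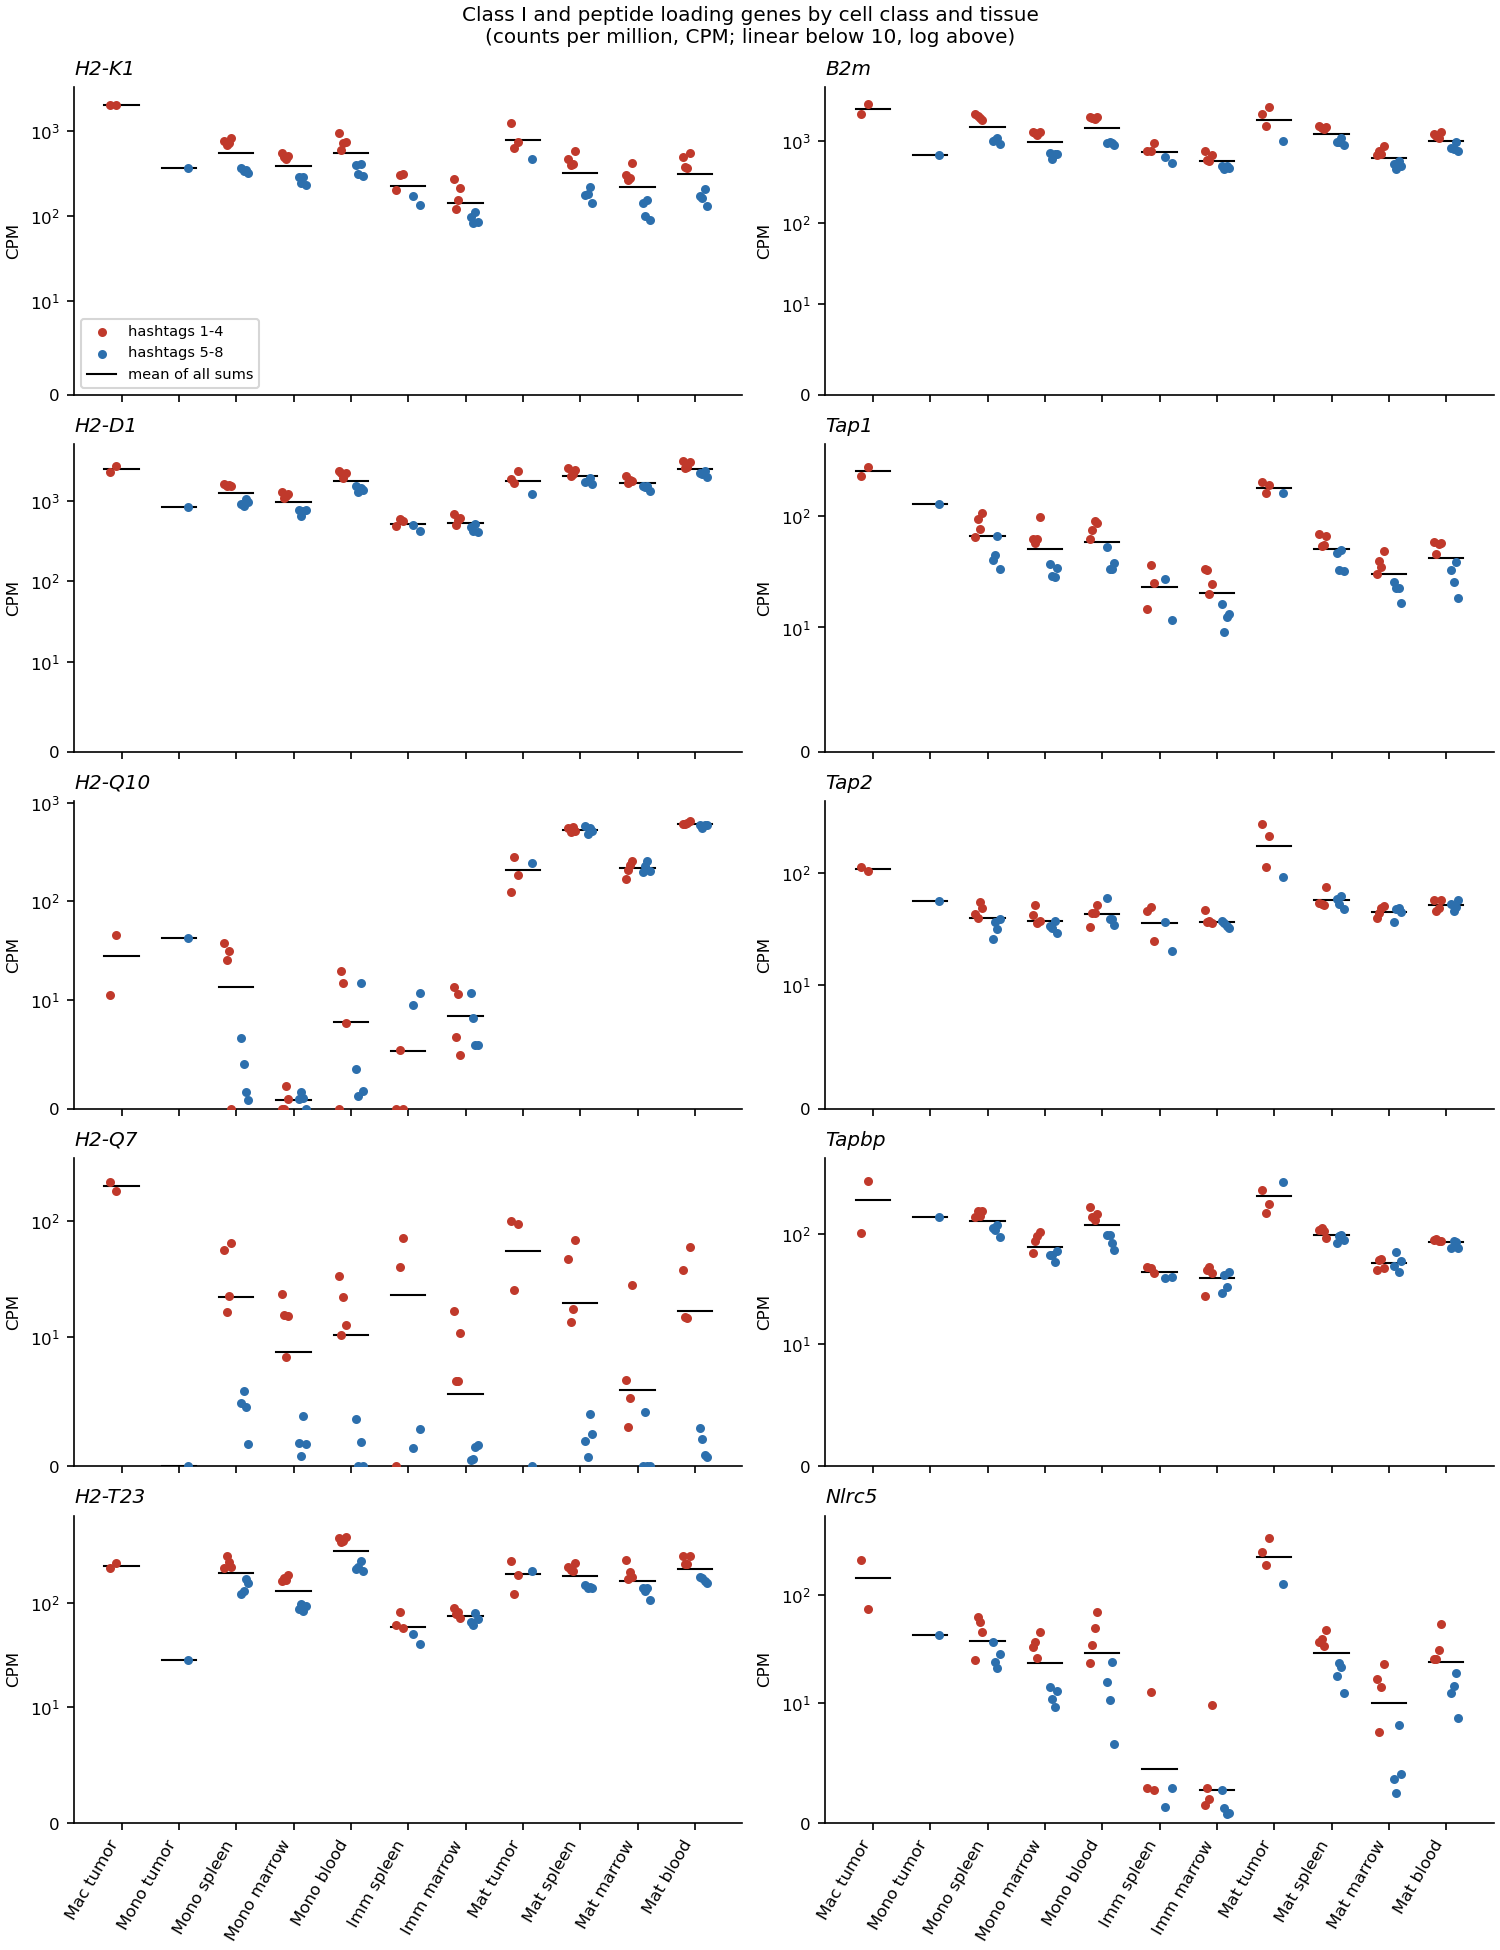
Level of each of the 10 genes in every sum, in CPM on an axis that is linear below 10 CPM and logarithmic above it; each point is 1 hashtag sum, colored by hashtags 1-4 or 5-8, grouped by cell class (Imm, immature neutrophils; Mat, mature neutrophils; Mono, monocytes; Mac, macrophages) and tissue, with a line at the mean of all sums of a group. H2-Q10 is high in mature neutrophils and near 0 in monocytes, and points of hashtags 1-4 lie above those of hashtags 5-8 for H2-K1 and B2m in each of the 7 groups with 8 sums.

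Within a tissue, the members differed between hashtags 1-4 and 5-8. H2-K1 and B2m were higher in hashtags 1-4 in all 7 combinations of class and tissue that had 4 sums on each side. No sum of hashtags 1-4 overlapped one of hashtags 5-8 for either gene. How many of all genes showed no overlap was not counted, here or in the comparisons that follow. H2-D1 was called higher in 6 of 7, H2-T23 and Tap1 in 5 of 7, Nlrc5 in 4 of 5, Tapbp in 3 of 7 and H2-Q7 in all 3 where it had enough UMIs. Tap2 and H2-Q10 were called in none of their 7 and 4. No member was called lower. The test was edgeR's quasi-likelihood test within each class and tissue, with library sizes equal to all UMIs and Benjamini-Hochberg adjustment over all genes with at least 100 UMIs, called under 0.05.

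Each count was read against the share of all genes called. In mature neutrophils of blood 7 of 10 members were called, against 3.8% of all genes, in those of spleen 6 of 10 against 2.36%, and in those of marrow 2 of 8 against 0.986%. Immature neutrophils of marrow had 4 of 8 members called, against 2.63% of genes. Monocytes had 7 of 8 called in blood against 7.58%, 7 of 9 in spleen against 2.53% and 7 of 8 in marrow against 3.03%. H2-Q7, H2-Q10 and Nlrc5 had too few UMIs for a test in some of these, so the tested members are not all 10. The hashtag split follows the numbers, and nothing here says which animals or genotypes they carry.

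H2-K1 in mature neutrophils of blood had 490, 379, 367 and 549 CPM in hashtags 1 to 4, against 171, 160, 205 and 129 CPM in hashtags 5 to 8. All 4 sums of hashtags 1-4 lay above all of hashtags 5-8, by 2.68-fold (log2 difference 1.42 ± 0.14 SE, adjusted p = 2.8e-06). In blood monocytes it had 942, 601, 716 and 733 CPM in hashtags 1 to 4, against 393, 311, 402 and 293 CPM in hashtags 5 to 8, a 2.09-fold difference (1.06 ± 0.11 SE, adjusted p = 1.2e-07). In the other 5 combinations the log2 difference was 1.39 in mature neutrophils of marrow, 1.38 in those of spleen, 1.13 in splenic monocytes, 0.96 in immature neutrophils and 0.93 in marrow monocytes. H2-K1 was called under every alternative tried in all 7.

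H2-D1 had 3105, 2539, 2635 and 2982 CPM in mature blood neutrophils of hashtags 1 to 4, against 2218, 2106, 2330 and 1933 CPM in hashtags 5 to 8. The groups did not overlap, and the log2 difference was 0.39 ± 0.07 (SE, adjusted p = 0.0041). In blood monocytes the log2 difference was 0.64 ± 0.06 (adjusted p = 4.5e-08), in splenic monocytes 0.71 and in marrow monocytes 0.70. In mature neutrophils of marrow it was 0.31 ± 0.09 and missed the threshold (adjusted p = 0.18). With scaling by TMM factors, which moved the median of all genes by -0.106 in mature blood neutrophils, the H2-D1 difference there was 0.29 and the call was lost, as it was in mature neutrophils of spleen at 0.29 and in immature neutrophils at 0.27. DESeq2 also lost the blood (0.28) and splenic (0.27) neutrophil calls, and leaving rule genes out of the totals lost those in splenic (0.33) and immature (0.31) neutrophils. The splenic neutrophil call, at 0.37, was also lost without hashtag 1, 3, 4, 5 or 8 (0.31 to 0.40), and the immature neutrophil call, at 0.38, without hashtag 1, 3, 4 or 6 (0.32 to 0.39).

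H2-Q7 showed the widest fold difference of the members, at low counts. Mature blood neutrophils had 37.4, 14.8, 14.6 and 59.3 CPM in hashtags 1 to 4, against 2.92, 2.07, 0.834 and 0.674 CPM in hashtags 5 to 8, which is 15.8-fold (log2 difference 3.98 ± 0.60 SE, adjusted p = 0.00051). Mature neutrophils of spleen had 46.6, 13.6, 17.5 and 68.4 CPM against 1.97, 0.741, 4.03 and 2.50 CPM, and splenic monocytes had 56.1, 16.3, 22.5 and 64.1 CPM against 4.85, 5.81, 4.57 and 1.70 CPM, with hashtags 1 to 4 given first. Within hashtags 1-4 the sums of hashtags 1 and 4 were the higher pair in each of these 3 sets. H2-Q6, a close paralog, was called higher in the 1 combination where it had enough UMIs, at 4.46 ± 0.90 (SE) in mature blood neutrophils, and reads of the 2 genes cannot be told apart with certainty.

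H2-T23 had 282, 235, 236 and 280 CPM in mature blood neutrophils of hashtags 1 to 4, against 177, 173, 164 and 154 CPM in hashtags 5 to 8 (log2 difference 0.62 ± 0.09 SE, adjusted p = 0.00021). In blood monocytes it had 421, 383, 393 and 430 CPM against 214, 222, 254 and 203 CPM, with hashtags 1 to 4 first, and differed by 0.86 ± 0.10 (SE, adjusted p = 3e-07). It was not called in immature neutrophils (0.24, adjusted p = 0.26) or in mature neutrophils of marrow (0.63, adjusted p = 0.094). H2-Q10 had 616, 613, 628 and 649 CPM in mature blood neutrophils of hashtags 1 to 4 and 598, 551, 598 and 595 CPM in hashtags 5 to 8. That is a log2 difference of 0.10 ± 0.07 (SE, adjusted p = 0.5).

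B2m, the light chain that every class I heavy chain shares, had 1993, 1906, 1840 and 1953 CPM in blood monocytes of hashtags 1 to 4, against 954, 960, 935 and 901 CPM in hashtags 5 to 8. The difference was 2.05-fold (1.03 ± 0.06 SE on the log2 scale, adjusted p = 6.9e-13), with a spread within each set that was small beside it. Mature blood neutrophils had 1233, 1159, 1096 and 1299 CPM in hashtags 1 to 4, against 810, 796, 971 and 746 CPM in hashtags 5 to 8 (0.53 ± 0.09 SE, adjusted p = 0.001). The log2 difference was 0.89 to 1.03 in the 3 monocyte sets and 0.43 to 0.60 in the 4 neutrophil sets. The call in mature neutrophils of marrow (0.56) was lost under TMM scaling (0.46), with rule genes left out of the totals (0.51) and without hashtag 2, 3, 5, 6 or 8 (0.50 to 0.60), and that in immature neutrophils under TMM scaling (0.32). Whether the 2 classes differ was tested as an interaction within each tissue, chosen after the values were seen. B2m was not called there: monocytes exceeded mature neutrophils by 0.51 ± 0.13 in blood (SE, adjusted p = 0.086), 0.36 ± 0.13 in spleen (adjusted p = 0.26) and 0.32 ± 0.13 in marrow (adjusted p = 0.4). In blood it was called with TMM scaling (0.59), DESeq2 (0.61), rule genes left out of the totals (0.55) and cells of several classes kept (0.45), and DESeq2 also called it in spleen (0.44) and marrow (0.46). With the hashtag of a tissue as a block it was not called in blood (0.51, adjusted p = 0.21), spleen or marrow. Of these interactions over all genes, 0.17% were called in blood, 0.691% in spleen and 0.143% in marrow, and H2-Q10 in spleen was the 1 member called (2.85 ± 0.59 SE, adjusted p = 0.0062). Its splenic monocyte sums had 37.4, 25.3, 31.0 and 0 CPM in hashtags 1 to 4, against 6.46, 4.15, 1.52 and 0.849 CPM in hashtags 5 to 8. The interaction was not called with the hashtag as a block (2.78, adjusted p = 0.073), without hashtag 3 (2.57), without hashtag 8 (2.46) or in cells thinned to 1000 UMIs (4.72). In blood and in marrow no member was called by edgeR's test, and 3 members in each had an unadjusted p under 0.05. The share of all genes at that unadjusted level was not counted, here or below.

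Of the transporter pair, Tap1 differed and Tap2 was not called. Tap1 had 58.1, 45.3, 55.3 and 57.2 CPM in mature blood neutrophils of hashtags 1 to 4, against 32.9, 25.3, 38.4 and 18.2 CPM in hashtags 5 to 8 (log2 difference 0.90 ± 0.17 SE, adjusted p = 0.0044). Tap2 had 57.6, 46.2, 49.3 and 57.2 CPM against 53.4, 46.0, 50.04 and 57.9 CPM in the same sums, hashtags 1 to 4 first, a difference of 0.01 ± 0.12 (SE, adjusted p = 0.98). In blood monocytes the log2 difference was 1.00 ± 0.19 for Tap1 (adjusted p = 0.00073) and 0.04 ± 0.21 for Tap2 (SE, adjusted p = 0.96). Over the 7 combinations Tap1 ranged from 0.61 to 1.08 and Tap2 from 0.01 to 0.48. The Tap1 call in immature neutrophils was lost without hashtag 6 (0.86), and that in splenic monocytes (0.94) with stricter class thresholds (0.88) and without hashtag 2, 3, 4, 5, 6 or 8 (0.78 to 1.00). The missed threshold does not show that Tap2 was equal, and the 2 genes were not tested against each other.

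Tapbp was called in the 3 monocyte sets and in none of the 4 neutrophil sets. Blood monocytes had 175, 143, 133 and 150 CPM in hashtags 1 to 4, against 97.8, 97.4, 81.4 and 70.8 CPM in hashtags 5 to 8 (0.73 ± 0.14 SE on the log2 scale, adjusted p = 0.00081). Mature blood neutrophils had 88.3, 88.5, 86.0 and 86.4 CPM against 74.6, 84.8, 83.4 and 74.1 CPM, hashtags 1 to 4 first (0.14 ± 0.09 SE, adjusted p = 0.46). The interaction in blood was 0.60 ± 0.16 (SE, adjusted p = 0.1) and was called with DESeq2 (0.70) and with cells of several classes kept (0.53), but not with the hashtag as a block (0.61, adjusted p = 0.23). The splenic monocyte call, at 0.49 ± 0.12 (SE, adjusted p = 0.044), was lost whichever 1 of the 8 hashtags was left out (0.42 to 0.54), and the marrow monocyte call without hashtag 3 (0.48).

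Nlrc5 had 25.4, 25.7, 31.0 and 54.6 CPM in mature blood neutrophils of hashtags 1 to 4, against 12.504, 14.5, 19.2 and 8.76 CPM in hashtags 5 to 8 (log2 difference 1.30 ± 0.27 SE, adjusted p = 0.008). The 2 sets did not overlap, and hashtag 4 was the highest sum. In blood monocytes it had 23.7, 34.8, 50.1 and 69.3 CPM against 15.7, 10.7, 24.1 and 6.59 CPM, hashtags 1 to 4 first, with hashtag 7 just above hashtag 1 (1.75 ± 0.32 SE, adjusted p = 0.00061). Marrow monocytes differed by 1.49 ± 0.20 (SE, adjusted p = 1.5e-05) and mature neutrophils of spleen by 1.03 ± 0.22 (adjusted p = 0.024, a call lost without hashtag 1, 2, 4, 5 or 8 at 0.87 to 1.06), while splenic monocytes were not called at 0.82 ± 0.26 (adjusted p = 0.13).

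**Figure D3:**
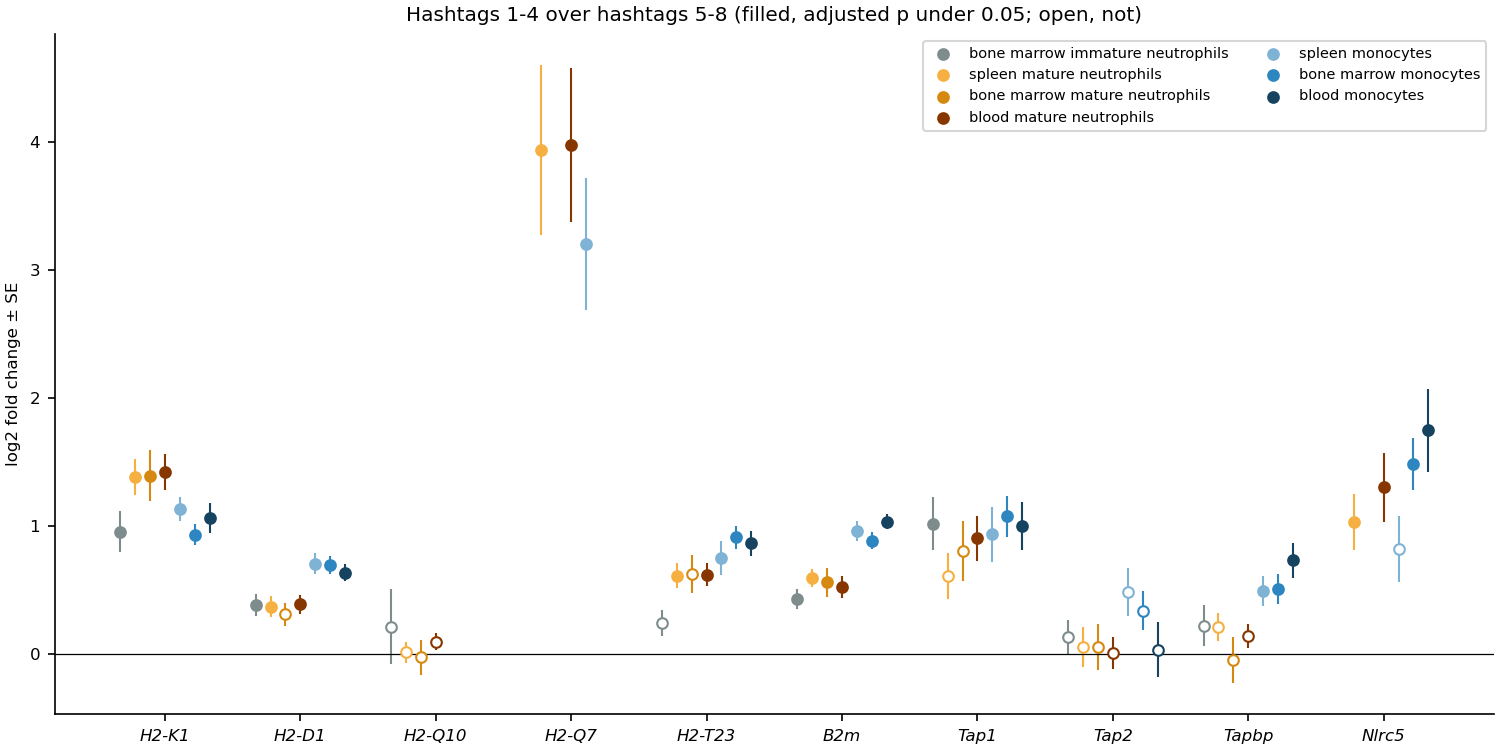
Log2 difference, hashtags 1-4 over 5-8, of the tested members in the 7 combinations of cell class and tissue; points are edgeR estimates, bars are 1 SE, filled points were called at an adjusted p under 0.05. H2-K1 lies between 0.93 and 1.42 and B2m between 0.43 and 1.03, while Tap2 lies between 0.01 and 0.48 with no filled point.

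The difference was visible in single cells as a shift in UMIs per cell. After thinning to 1000 UMIs, 31.1% of mature blood neutrophils of hashtags 1-4 had an H2-K1 UMI, against 15.1% of those of hashtags 5-8, with single hashtags between 26.2% and 38.3% and between 10.99% and 18.3%. In blood monocytes the shares were 50.2% in hashtags 1-4 and 31.4% in hashtags 5-8. Unthinned shares were 60.5% against 34.1% in mature blood neutrophils and 98.7% against 95.5% in blood monocytes. Cells of hashtags 1-4 were slightly shallower, with a median of 2881.5 UMIs against 3122.5 in mature blood neutrophils and 9755 against 11655 in blood monocytes.

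**Figure D4:**
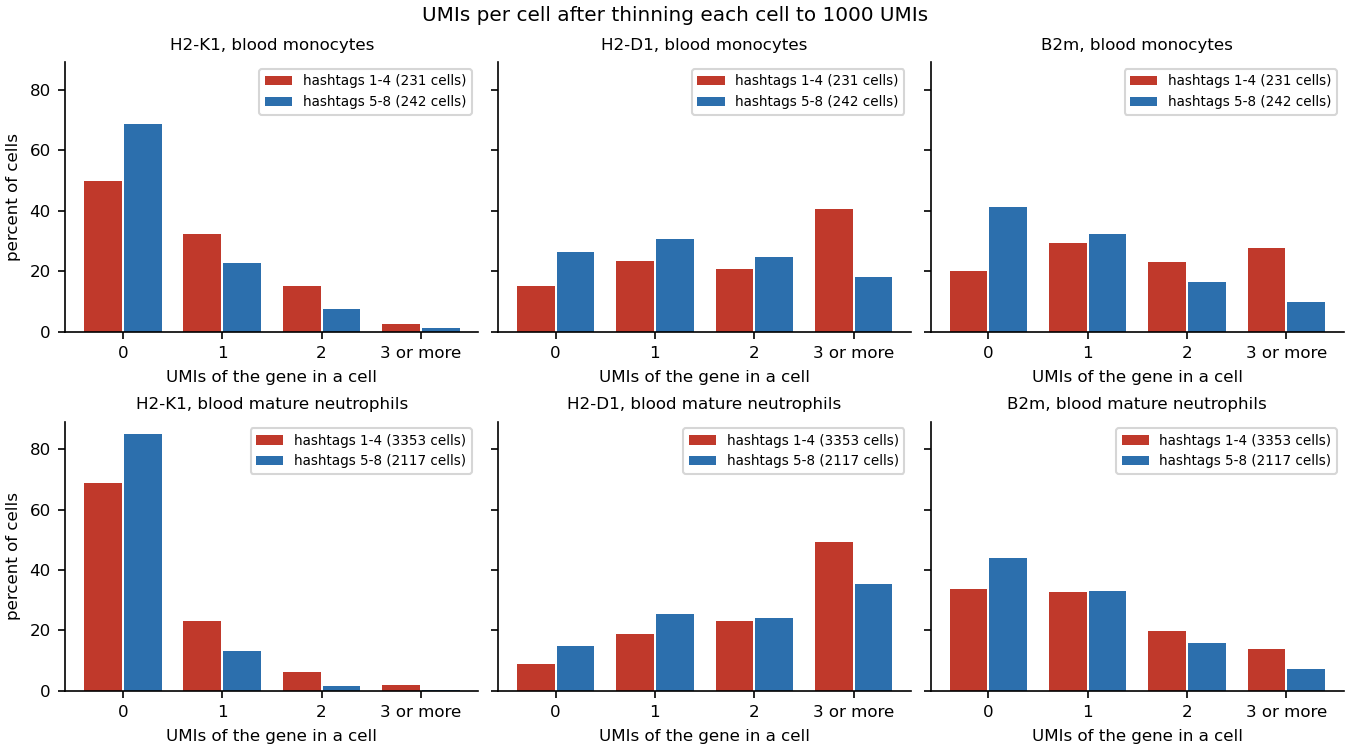
Share of cells with 0, 1, 2 and 3 or more UMIs of a gene after thinning each cell to 1000 UMIs, in blood cells of hashtags 1-4 and of hashtags 5-8; the vertical axis is percent of cells. For H2-K1 in blood monocytes 49.8% of cells of hashtags 1-4 had no UMI at this depth, against 68.6% of cells of hashtags 5-8.

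Interferon-induced genes were higher in hashtags 1-4. Of the measured interferon alpha and beta genes, 10 of 12 were called higher in hashtags 1-4 in mature blood neutrophils and 1 lower, and 9 of 11 higher in blood monocytes. The counts were 9 of 11 and 7 of 9 in mature neutrophils of spleen and marrow (1 lower in spleen), 5 of 8 in immature neutrophils, and 6 of 8 in monocytes of spleen and of marrow. Isg15, a ubiquitin-like protein attached to other proteins under interferon, had a median of 266 CPM in mature blood neutrophils of hashtags 1-4, against 18.5 CPM in hashtags 5-8 (log2 difference 3.77 ± 0.21 SE, adjusted p = 3.7e-09). Oas3, a sensor of double-stranded RNA, had 112.5 to 145 CPM against 0 to 3.62 CPM (6.45 ± 0.28 SE), hashtags 1-4 first. Isg15, Irf7 and Irf9 were called in all 7 combinations. The 1 gene of the list called lower was Ifnar1, a subunit of the interferon alpha and beta receptor, with 64.7 to 91.2 CPM in mature blood neutrophils of hashtags 1-4, against 148 to 183 CPM in hashtags 5-8.

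Of genes tied to interferon gamma, 3 of 10 were called higher in mature blood neutrophils and 2 of 9 in blood monocytes. Irgm1, an interferon-induced GTPase, was called in all 5 combinations where it was tested, at 1.57 to 2.35 on the log2 scale, and Gbp7 in 3 of 7. The receptor genes Ifngr1 and Ifngr2 were called in none of 7. Of the regulators of class I transcription, Irf2 was called in 2 of 7, and neither Irf1 nor Nfkb1 was called in any.

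Of class I relatives outside the members, H2-T24 was called higher in 4 of 5 combinations, H2-T22 in 4 of 7, H2-Q4 in 3 of 4 and H2-M3 in 2 of 3, while Cd1d1 was not called in the 1 where it was tested (-0.18), and none was lower. Genes of peptide supply and assembly were mostly not called: 1 of 14 in mature blood neutrophils (Psme1, a proteasome activator subunit, 0.52 ± 0.10 SE) and none higher but 2 lower of 14 in blood monocytes. Those 2 were Pdia3 (-0.46 ± 0.09) and Calr (-0.65 ± 0.13), the oxidoreductase and the lectin of the loading complex. Both were called higher in immature neutrophils of marrow (0.39 and 0.77), where 3 of 13 genes of the list were. The immunoproteasome subunit genes Psmb8 and Psmb10 were called in no combination and Psmb9 in 1 of 7. Class II genes were higher in monocytes of blood (5 of 7) and marrow (5 of 6) and none of 7 was called in those of spleen, with H2-Aa at 2.20 ± 0.54 (SE) in blood. The median log2 difference of the list was 1.46 in splenic and 1.46 in marrow monocytes, and a difference between tissues was not tested. The splenic sum with 31281 CPM of B cell markers belongs to hashtags 5-8, and its part was not tested. Of the receptors that bind class I, only Klra2 was called, in 1 of 7.

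Markers of other cells were set beside these results. In mature blood neutrophils the summed monocyte markers were 266 to 326 CPM in hashtags 1-4, against 186 to 237 CPM in hashtags 5-8, with 2 of 7 called higher. In blood monocytes 3 of 6 measured mature neutrophil markers were called higher, with sums of 710.2 to 2166 CPM in hashtags 1-4 and 772 to 1604 CPM in hashtags 5-8, and 4 of 7 monocyte markers were higher. Blood monocytes themselves had 5275 to 6644 CPM of monocyte markers. Their part in the hashtag difference was not tested. In splenic monocytes, leaving out any 1 of hashtags 5-8, which includes the sum with B cell markers, left 5 or 6 of 9 members called.

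Tumor neutrophils were compared with blood neutrophils to see whether the loading genes differ at the tumor. Of the 10 members 6 were called higher in tumor and 2 lower, against 30% of all genes called in either direction. Nlrc5 had 249.994, 191, 342 and 127 CPM in the tumor sums of hashtags 2, 3, 4 and 6, against a range of 8.76 to 54.6 CPM and a median of 22.3 CPM in the 8 blood sums. All 4 tumor sums lay above all 8 blood sums, by 8.12-fold (log2 difference 3.02 ± 0.52 SE, adjusted p = 1.9e-06). Nlrc5 was also the 1 member still called when a wider margin between hashtags was asked of each cell.

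Tap1 had 199.995, 159, 187 and 160 CPM in the tumor sums of hashtags 2, 3, 4 and 6, against 18.2 to 58.1 CPM in blood (median 41.9 CPM), and differed by 2.01 ± 0.43 (SE, adjusted p = 0.00013). Tap2, which was not called between the hashtag sets, had 275, 115, 218 and 92.9 CPM against 46.0 to 57.9 CPM (1.45 ± 0.23 SE, adjusted p = 5e-07). Tapbp had 249.994, 153, 187 and 296 CPM against 74.1 to 88.5 CPM (1.39 ± 0.24 SE, adjusted p = 2.2e-06). For none of the 3 genes did a tumor sum overlap a blood sum. The tumor sums of mature neutrophils held 32148 to 156911 UMIs of all genes each. Their levels of these 3 genes, of Nlrc5 and of H2-Q10 therefore rest on few UMIs.

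Among the heavy chains, H2-K1 had 1250, 631, 747 and 465 CPM in tumor, against 129 to 549 CPM in blood, so that hashtag 6 fell inside the blood range (1.23 ± 0.43 SE, adjusted p = 0.022). B2m had 2175, 1523, 2613 and 988 CPM against 746 to 1299 CPM (0.78 ± 0.25 SE, adjusted p = 0.012). H2-D1 had 1825, 1657, 2333 and 1208 CPM against 1933 to 3105 CPM and was called lower (-0.54 ± 0.19 SE, adjusted p = 0.026). H2-Q10 had 125, 280, 187 and 245 CPM against 551 to 649 CPM, with no overlap, and was called lower (-1.38 ± 0.33 SE, adjusted p = 0.00057). The H2-Q10 call was lost with stricter class thresholds (-0.63), in thinned cells (-0.61) and with a stricter hashtag margin (-1.12). H2-T23 (-0.29 ± 0.34) and H2-Q7 (0.95 ± 1.596) were not called.

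Of the 4 tumor sums, 3 belonged to hashtags 1-4, so the comparison was repeated within each set. Within hashtags 1-4 the log2 difference was 0.89 for H2-K1, 0.76 for B2m, 1.68 for Tap1, 1.65 for Tap2, 1.03 for Tapbp and 2.78 for Nlrc5, all called, and H2-T23 was called lower at -0.71, against 0.28 and no call within hashtags 5-8. Within hashtags 5-8, with 1 tumor sum that is assumed to vary like the other groups, the values were 1.48, 0.25, 2.48, 0.84, 1.90 and 3.22 in the same order, of which B2m and Tap2 were not called. TMM scaling moved the median of all genes by -0.474. Under it H2-K1 (0.67) and B2m (0.17) were no longer called, H2-T23 was called lower (-0.77), and Tap1, Tap2, Tapbp and Nlrc5 kept their calls. With stricter class thresholds H2-K1 (0.55), B2m and Tap2 lost their calls. Leaving rule genes out of the totals lost those of H2-K1 (1.03) and B2m (0.58). In thinned cells H2-K1 (0.93), H2-D1 (-0.50), B2m and Tapbp were not called, nor was H2-D1 with cells of several classes kept (-0.53). The H2-K1 call was also lost without hashtag 2 (0.99) and without hashtag 3 (1.37), the B2m call without hashtag 2 (0.70) and without hashtag 4 (0.63), and the H2-D1 call without hashtag 2, 3 or 6 (-0.56, -0.50 and -0.41).

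Other genes of the pathway differed alongside. Peptide supply and assembly genes were higher in tumor in 11 of 14, with Psme2 at 2.04 ± 0.20, Calr at 3.57 ± 0.39, Psmb8 at 1.58 ± 0.17 and Psmb10 at 2.70 ± 0.35 (SE, log2). Interferon gamma genes were higher in 11 of 14 and lower in 2, led by Icam1 (6.20 ± 0.28), Cd274 (4.12 ± 0.28) and Gbp2 (3.72 ± 0.27). Interferon alpha and beta genes were higher in 1 of 12 (Ifnar2, 0.74 ± 0.16), and Isg15 was not called at 1.41 ± 0.97. Of the regulators 4 of 15 were higher, with Nfkb1 at 3.71 ± 0.16, Irf1 at 1.90 ± 0.24 and Irf8 at 4.25 ± 0.65, and 2 lower. All 7 class II genes were higher. Of the receptors that bind class I, 3 of 6 were higher and 3 lower, with Pirb lower at -1.98 ± 0.16.

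The tumor neutrophil sums also held RNA of other cells. Macrophage markers summed to 100.0 to 1897 CPM in tumor, against 156 to 344 CPM in blood, with 5 of 7 called higher. Monocyte markers summed to 473 to 2022 CPM against 186 to 326 CPM, with 4 of 7 higher, and T and NK cell markers reached 2375 CPM in 1 tumor sum, against at most 33.9 CPM in blood. Mature neutrophil markers were lower, at 41599 to 65334 CPM in tumor against 162484 to 218389 CPM in blood, with 7 of 8 called lower and 1 higher. These markers include S100a8 and S100a9, which the class rule asked at 1% of UMIs in tumor and 3% in blood. The marker sums are therefore not free of the rule, and its part was not tested. All 6 epithelial and tumor markers and all 5 erythroid markers were at 0 in tumor neutrophils, where erythroid markers had 125 to 12913 CPM in blood. The part of these cells in the difference between tumor and blood was not tested.

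Tumor macrophages were set against both classes. H2-K1 had 2040 and 2026 CPM in the 2 macrophage sums, against 1250, 631, 747 and 465 CPM in tumor mature neutrophils, with no overlap. Without a block for the hashtag the difference was 1.495 ± 0.57 (SE, adjusted p = 0.071). With the hashtag number as a block, it was 1.14 and called (adjusted p = 7.6e-05). That block was shared by all tissues and took equal numbers as paired across them, which the labels do not state. H2-Q10 was the 1 member called without the block (-3.17 ± 0.91, adjusted p = 0.011), at 11.3 and 45.0 CPM against 125 to 280 CPM, which rests on 4 UMIs in macrophages. Over all genes 13.2% were called in this comparison.

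Against blood monocytes, macrophages were higher in 5 of 10 members, with 13.2% of all genes called in either direction. H2-K1 had 2040 and 2026 CPM against 293 to 942 CPM (1.91 ± 0.46 SE, adjusted p = 0.0016). Tap1 had 225 and 270.2 CPM against 33.3 to 89.0 CPM (2.09 ± 0.54, adjusted p = 0.0033) and Tap2 had 113 and 105 CPM against 33.1 to 60.4 CPM (1.30 ± 0.36, adjusted p = 0.017). H2-Q7 had 214 and 180.1 CPM against 0 to 33.1 CPM (4.596 ± 1.39, adjusted p = 0.016), and Nlrc5 had 214 and 75.1 CPM against 6.59 to 69.3 CPM (2.38 ± 0.78, adjusted p = 0.029). Both macrophage sums came from hashtags 1-4, and within hashtags 1-4 the same 5 were called, at 1.46 for H2-K1, 3.60 for H2-Q7, 1.62 for Tap1, 1.27 for Tap2 and 1.70 for Nlrc5. H2-T23 was called lower in macrophages within hashtags 1-4 (-0.84), with TMM scaling (-1.08) and with cells of several classes kept (-0.88), while over all hashtags it was not called. Without hashtag 2, which leaves 1 macrophage sum, none of these 5 was called, and without hashtag 4 Tap2 was not (1.38). T and NK cell markers were at 180 and 2479 CPM in the 2 macrophage sums, against at most 104 CPM in blood monocytes, with 4 of 4 called higher, and their part was not tested.

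**Figure D5:**
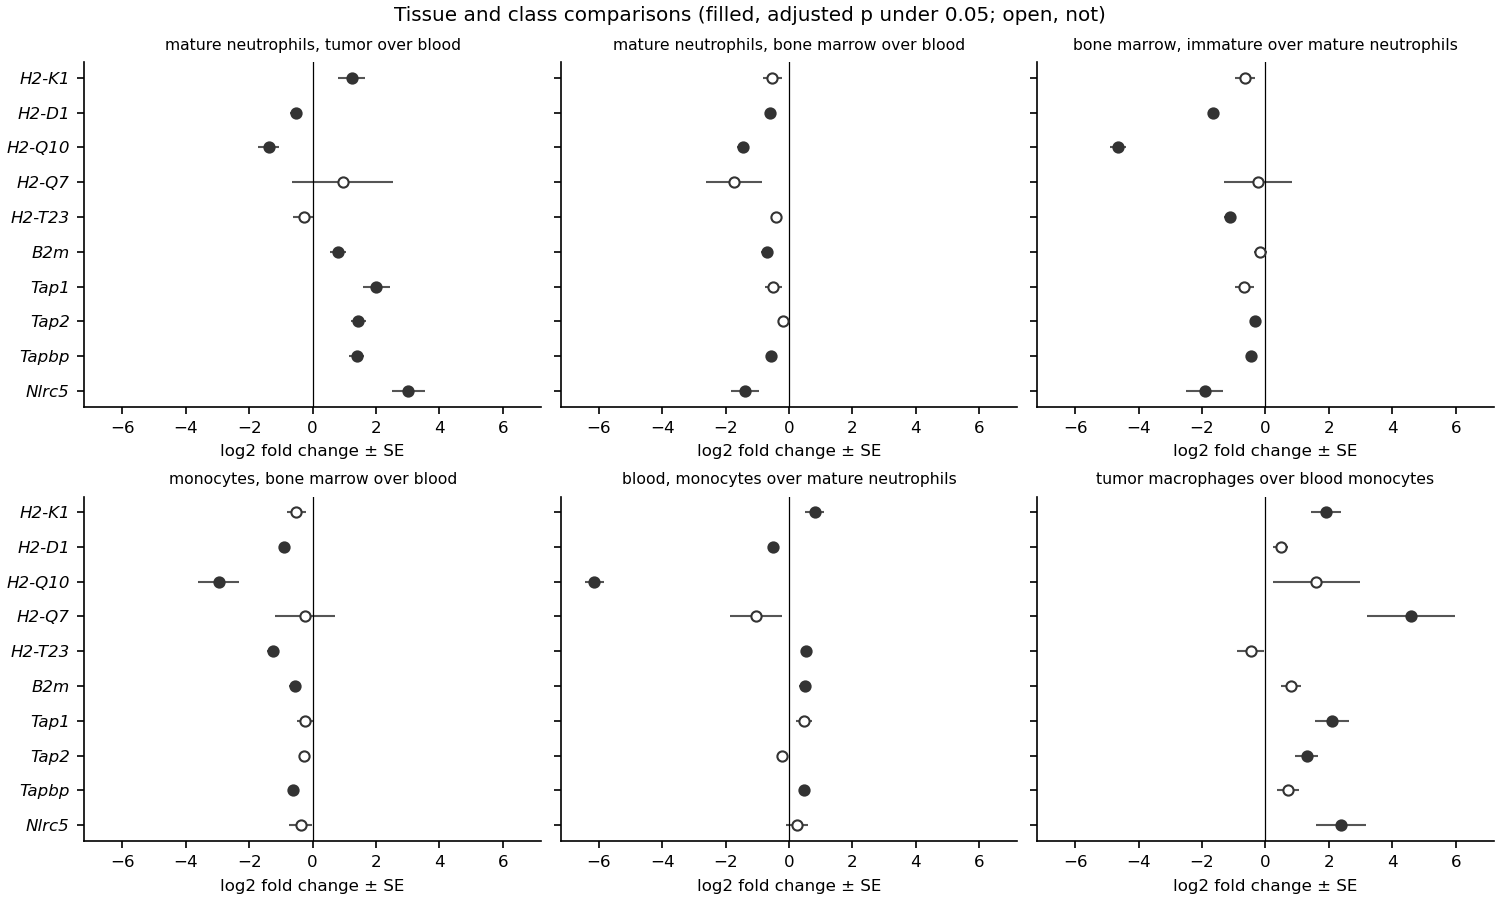
Log2 difference of the 10 members in 6 comparisons between tissues or classes, each named by the group on top first; points are edgeR estimates, bars are 1 SE and filled points were called at an adjusted p under 0.05. Nlrc5, Tap1, Tap2 and Tapbp lie above 1 in tumor over blood mature neutrophils, and H2-Q10 lies below -4 in immature over mature neutrophils of bone marrow.

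Among mature neutrophils outside the tumor, those of marrow were lower than those of blood in 5 of 10 members and higher in none. Over all genes 40.7% were called, so the count lay near that share. H2-Q10 had 171 to 255 CPM in marrow, against 551 to 649 CPM in blood (-1.46 ± 0.19 SE, adjusted p = 2.3e-09). H2-D1 (-0.60 ± 0.14), B2m (-0.69 ± 0.20), Tapbp (-0.58 ± 0.14) and Nlrc5 (-1.39 ± 0.43) were also lower. Interferon gamma genes were lower in 11 of 14, and 6 of 6 immature neutrophil markers were higher in the marrow sums, whose part was not tested. In B2m the marrow sums of 450.2 to 877 CPM overlapped the blood sums of 746 to 1299 CPM, with hashtags 1-4 above hashtags 5-8 in both tissues. Splenic mature neutrophils were called in none of 10 against blood, where 11.7% of genes were called by edgeR's test. At an unadjusted p under 0.05 that test gave 1 member, H2-D1 (-0.32 ± 0.14), which TMM scaling and DESeq2 each called as their only member. With the hashtag number as a block H2-D1 (-0.31) was called lower and B2m (0.27) higher.

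Within the marrow, several heavy chains were lower in the immature cells. Immature neutrophils were lower than mature ones in 6 of 10 members, with 56.5% of all genes called, so the count lay near that share. H2-D1 had 408 to 676 CPM in immature neutrophils, against 1301 to 2027 CPM in mature ones, with no overlap (-1.65 ± 0.15 SE, adjusted p = 7.1e-16). H2-T23 had 60.8 to 88.9 CPM against 107 to 258 CPM (-1.12 ± 0.19, adjusted p = 4.5e-07), and H2-Q10 had 4.94 to 13.6 CPM against 171 to 255 CPM (-4.66 ± 0.26, adjusted p = 7.3e-26). Nlrc5 (-1.92 ± 0.60), Tapbp (-0.46 ± 0.15) and Tap2 (-0.33 ± 0.13) were lower too, while B2m was not called (-0.16 ± 0.20, 452 to 761 CPM against 450.2 to 877 CPM). With the hashtag number as a block shared by all tissues, H2-K1 (-0.57) and Tap1 (-0.66) were called lower as well. Leaving the class rule genes out of the totals moved the median of all genes by 0.313, and Tap2 (-0.01) and Tapbp (-0.15) were then not called. The Tap2 call was also lost with TMM scaling, with DESeq2, in thinned cells and with stricter class thresholds. It was lost as well with no minimum of UMIs per gene, in each hashtag set alone, and without hashtag 3, 6, 7 or 8. Tapbp was not called with DESeq2 or in hashtags 1-4 alone, and Nlrc5 was not called without hashtag 3. In immature neutrophils of spleen against marrow edgeR's test called no member and 1.04% of genes. At an unadjusted p under 0.05 it gave 1 member, H2-Q7 (2.35 ± 1.00).

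Monocytes of marrow were lower than those of blood in 5 of 10 members, with 49.3% of all genes called, so the count lay near that share. H2-T23 had 84.0 to 185 CPM in marrow, against 203 to 430 CPM in blood, with no overlap (-1.26 ± 0.18 SE, adjusted p = 1.3e-08). H2-D1 had 644 to 1294 CPM against 1271 to 2296 CPM (-0.89 ± 0.14, adjusted p = 3.5e-07), and B2m (-0.56 ± 0.19) and Tapbp (-0.61 ± 0.14) were lower. With the hashtag number as a block H2-K1 was called lower too (-0.48, adjusted p = 8.6e-05). H2-Q10 was called as well, on 13 UMIs in marrow and 43 in blood. Splenic monocytes were lower than blood monocytes in H2-D1 (-0.50 ± 0.14) and H2-T23 (-0.70 ± 0.18), with 20.1% of genes called. Members were thus called about as often as all genes. The marrow difference of H2-T23 was more negative in monocytes than in mature neutrophils by -0.86 ± 0.25 (SE, adjusted p = 0.0068 for the interaction), the 1 member called among 27% of genes. The interaction for spleen called no member and 1.03% of genes by edgeR's test, with 0 members at an unadjusted p under 0.05.

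In blood itself, monocytes were higher than mature neutrophils in H2-K1 (0.81 ± 0.30), H2-T23 (0.54 ± 0.17), B2m (0.49 ± 0.19) and Tapbp (0.47 ± 0.13), and lower in H2-D1 (-0.49 ± 0.14) and H2-Q10 (-6.14 ± 0.29), where 79.3% of genes were called. Members were not called more often here than all genes. The median of all genes was itself higher in monocytes by 0.60, and relative to it the 4 higher members lay between -0.13 and 0.21. With the hashtag number as a block shared by all tissues, Tap1 was called higher as well (0.52). Under TMM scaling none of those 4 was called, while H2-D1, H2-Q10 and Tap2 (-0.68) were called lower, and Tap2 was also called lower with DESeq2 (-0.29) and with rule genes left out of the totals (-0.48). H2-D1 had 1271 to 2296 CPM in monocytes, against 1933 to 3105 CPM in mature neutrophils. All 14 peptide supply genes and all 7 class II genes were called higher in monocytes, with Psmb10 at 3.85 ± 0.15 and H2-DMa at 4.72 ± 0.20 (SE).

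Across all 68 sums, the genes whose log2(CPM + 1) was most like that of H2-K1 were B2m (Pearson r = 0.910) and Tap1 (0.888), ranked 1 and 2 of 7112 genes. Ranked were the other members and the genes that averaged 10 CPM or more, without ribosomal, mitochondrial and unnamed genes. Outside the members the closest were Ifi47 (0.876), Stat2 (0.862), Ifi35 (0.851), Ifi207 (0.851) and Zbp1 (0.848), which are interferon-induced genes or, for Stat2, part of the interferon signal. Nlrc5 ranked 11 (0.834), H2-Q7 30 (0.757) and Tapbp 44 (0.743). H2-T23 ranked 295 (0.630), H2-D1 702 (0.536) and Tap2 885 (0.505), while H2-Q10 ranked 5204 and showed no likeness (-0.088). The sums share animals, libraries and the hashtag split, so these values describe the 68 sums only.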

How the data were processed

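The deposited matrix holds raw UMI counts per gene and cell, with hashtag and surface antibody counts beside them, made by the authors with Cell Ranger 7.0.1 on mm10 per the submitters' processing notes. A cell was given a hashtag when that antibody had at least 20 counts and at least 3 times the next. For each class, UMIs of the cells of a hashtag within a tissue were added up (at least 20 cells, 5 in tumor), and a hashtag within a tissue was taken as 1 mouse. Genes with at least 100 UMIs were tested with edgeR 4.0.16 in R 4.3.3 (quasi-likelihood, library size equal to total UMIs), with Benjamini-Hochberg adjustment over all of them. The scripts were tested on simulated data. DESeq2 1.42.0 and TMM factors were alternatives. Precision is set by the UMIs of a sum, 32148 to 4424355. Intervals and floors cover counting error only.

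The members and gene lists were chosen with earlier results of these data known. All members are reported, and from each list the 4 genes of lowest p in a comparison were the ones eligible to be named, with genes counted across the hashtag comparisons named by their counts; genes outside this were chosen after their values were seen. The 5 genes most like H2-K1 were taken by Pearson r among named genes that are no members. Within a tissue 1 hashtag is 1 animal per the labels, so classes of a tissue are paired by hashtag. The main tests between classes and between tissues nevertheless used no block for the hashtag. The block shared by all tissues took equal numbers as paired in every group. Among the tissue pairs checked within a class, not all had r above 0.1 for every same-numbered pair's deviations from the group means. Those that did were blood with marrow monocytes (lowest 0.20) and blood with splenic mature neutrophils (lowest 0.19). Surface antibody counts were not used, and cells without 1 hashtag or meeting more than 1 class rule were left out. The result of 1 gene of the regulator list is not reported here.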

Additional observations from a re-analysis of the deposited data

Results flagged for a closer look

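In 8 of 160 groups of 4 or 5 sums a single sum stood apart from the rest by Dixon's criterion, where chance gives about 1 in 20. Groups with 8 sums were tested as hashtags 1-4 and 5-8 apart. H2-Q10 was low in mature blood neutrophils of hashtag 6 (551 CPM). H2-Q7 was high in mature marrow neutrophils of hashtag 4 (27.8 CPM) and of hashtag 6 (4.18 CPM), each within its own set of 4. Tap1 was high in marrow monocytes of hashtag 4 (96.1 CPM). Tap2 was high in immature marrow neutrophils of hashtag 1 (46.7 CPM) and in mature splenic neutrophils of hashtag 4 (75.4 CPM). Nlrc5 was high in immature neutrophils of marrow in hashtag 4 (9.88 CPM) and of spleen in hashtag 3 (12.6 CPM).

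In 2 cases the difference itself was tested and called by edgeR's interaction term. The marrow over blood difference of H2-T23 was more negative in monocytes than in mature neutrophils, by -0.86. The difference of H2-Q10 between hashtags 1-4 and 5-8 in spleen was higher in monocytes than in mature neutrophils, by 2.85, and was not called with the hashtag as a block (2.78), without hashtag 3 (2.57) or without hashtag 8 (2.46).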

How the results depend on the processing

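No result reversed. Counts of members called moved as follows, and the share of all genes called moved too. Over the comparisons that share was 0.0402 to 2.07 times the main one in thinned cells and 0.285 to 1.2 times with the stricter hashtag margin. It was 0.608 to 2.59 times with TMM, 0.51 to 2 times with DESeq2 and 0.577 to 1.48 times with stricter classes. With rule genes left out it was 0.635 to 1.29 times, and with cells of several classes kept 0.473 to 2.47 times. For the fits within a hashtag set it was 0.272 to 0.977 times in hashtags 1-4 alone and 0.0378 to 0.972 times in hashtags 5-8 alone. Tumor over blood mature neutrophils had 8, against 1 with a stricter hashtag margin, 4 with stricter class thresholds and 3 in thinned cells (5 to 8 without 1 hashtag). Spleen over blood mature neutrophils had 0, against 1 with TMM and 1 with DESeq2. Splenic over blood monocytes had 2, against 1 with stricter classes, and marrow over blood monocytes 5, against 3 thinned. Blood monocytes over mature neutrophils had 6, against 3 with TMM and 3 with rule genes left out of totals (5 to 7 without 1 hashtag). Immature over mature neutrophils had 4 to 8 without 1 hashtag. Macrophages over tumor neutrophils had 1, against 2 with stricter classes, 0 thinned and 2 in hashtags 1-4 alone (0 to 2 without 1 hashtag), and over blood monocytes 5, against 0 thinned and 7 with cells of several classes kept (1 to 6 without 1 hashtag). The marrow interaction had 1, against 3 with DESeq2, 2 with rule genes left out, 2 with stricter classes, 0 thinned and 2 in hashtags 5-8 alone. Marrow over blood mature neutrophils had 9 in hashtags 1-4 alone.

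Between hashtags 1-4 and 5-8, mature marrow neutrophils had 2, against 1 with TMM and 1 with rule genes left out (1 to 2 without 1 hashtag). Mature splenic neutrophils had 6, against 3 thinned (4 to 6). Immature neutrophils had 4, against 2 with TMM, 2 with DESeq2 and 2 thinned (2 to 4). Monocytes had 7 in each tissue, against 4 thinned in blood, 3 in spleen (4 to 6) and 4 in marrow (6 to 7). The cause was not tested; thinned sums hold fewer UMIs. Within-set fits and the 3 class-by-hashtag interactions, with and without the block, were chosen after seeing the data.

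Across tissues, sums of a shared hashtag number were not alike in every pair of groups (lowest r -0.41). With the number as a replicate block shared by all tissues, spleen over blood mature neutrophils had 2 members called and marrow over blood 9. Splenic over marrow immature neutrophils had 2, the marrow interaction 3 and macrophages over tumor neutrophils 2. Macrophages over blood monocytes had 7 and marrow over blood monocytes 6. The share of all genes called was 0.955 to 1.27 times that without the block.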
